A study of Mus musculus with 10 samples.

Results

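The sites described here are the 291 places in the mouse genome where both β-catenin ChIP-seq libraries of nephron progenitors had a peak and neither Six2 library did. They were chosen by merging the peaks of all 4 lists that share at least 1 bp, which gave 7666 merged regions, and keeping those with a peak of each β-catenin library and none of either Six2 library. Because peak presence chose them, their presence in both β-catenin lists and their lack of a Six2 peak are a description and carry no test. Chromatin came from Six2-expressing progenitors that were FACS-sorted at E16.5, a stage of active nephron formation, from kidneys of mice of mixed background, positive for the Six2GFPcre BAC transgene, which all groups carry. The sort therefore rests on the transgene's GFP. For β-catenin (2 libraries) the sorted cells were pelleted and kept for 24 h in medium with serum and 4 µM BIO, and for Six2 (2 libraries) they were used fresh. Antibody and culture changed together, and their parts in the lack of a Six2 peak cannot be told apart. The 6 input and mock samples were not analysed here, so places that give a peak with any antibody were not marked. Whether the 2 libraries of an antibody are separate sorts or cultures is not in the labels, and peak lists hold no expression against which the cell type could be checked.

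β-catenin is the co-activator of canonical Wnt signalling. When Wnt ligands, or an inhibitor of the kinase GSK3 such as BIO, stop its breakdown, it enters the nucleus and binds TCF/LEF factors, which contact the DNA. In the embryonic kidney, Wnt9b from the ureteric bud acts through this route on the cap mesenchyme, both in renewing progenitors and in starting the change to epithelium, of which Wnt4 is a known effector. Six2 is a homeodomain factor that holds the same cells in the progenitor state. A β-catenin site without Six2 is thus one where the Wnt co-activator was found after BIO and the progenitor factor was not called in fresh cells.

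The lists give chromosome, start and end in the mm9 build, with no score, p-value or read count, so the depth behind a peak is unknown. The β-catenin lists had 1873 and 1208 peaks and the Six2 lists 5645 and 1622. Rows are not in order of position, and a peak's row (1 for the first line) is used below only to describe where in its list a site stands. Whether row order ranks the peaks by strength is not given in the sources used here. Words such as leading site, best row or late row refer to this order alone. The gene table at hand is of another build, so the genes around these sites and their base sequence were not analysed here, and sites are named by position.

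The β-catenin lists alone merged into 2528 regions, 551 of them with a peak of each library. Of those 551, 260 overlapped a Six2 peak and 291 did not, and the latter are exactly the regions that the merge of all 4 lists gave. Lack of a Six2 peak was the more common state of β-catenin regions as a whole. It held for 69.4% of all 2528 regions (67.5% without a block of 146 replicate 1 peaks on chromosome 2, which holds none of the 291). By class, 52.8% of the regions of both libraries (95% exact binomial interval 48.5 to 57.0%), 67.6% of those of replicate 1 only (63.5% without the block) and 87.1% of those of replicate 2 only (84.3 to 89.5%) had no Six2 peak. Among the 260 with Six2, 121 had a peak of each Six2 library, 129 of replicate 1 only and 10 of replicate 2 only. The number of sites therefore rests mostly on Six2 replicate 1. Without that library 420 regions would have no Six2 peak, and without Six2 replicate 2 there would be 301. Asking for 1 β-catenin library in place of both gave 871 peaks from replicate 2 alone and 1187 from replicate 1 alone.

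The site that stood first was at chr11:80908557-80908734. Its replicate 1 peak was row 3 of the list (80908557 to 80908714) and its replicate 2 peak was row 1 (80908595 to 80908734), with midpoints 29 bp apart. The nearest Six2 peak lay 53443 bp away and was row 2625 of Six2 replicate 1. The nearest region with peaks of both β-catenin libraries and of Six2 was 9107467 bp away. This site had 1 peak of each Six2 library within 100 kb, at rows 2625 and 885 of their lists. It led only among the sites without Six2, since a region with Six2 stood at rows 1 and 3 of the β-catenin lists.

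The next site, chr11:120572249-120572387, was row 4 in each list. Its peaks coincided almost base for base, with 134 bp in common and midpoints 2.5 bp apart. A further member, chr11:120556573-120557332, stood 14916 bp before it, at rows 986 and 99. It was wide, with peaks of 696 and 571 bp, against 137 and 136 bp at its neighbour. A single Six2 peak stood within 100 kb of the leading site, at 21007 bp, and was row 4494 of Six2 replicate 1. The pair is thus a narrow leading site beside a broad one at later rows, with Six2 nearby only late in the longer list.

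The third site, chr14:22810535-22810726, was row 8 in replicate 1 and row 6 in replicate 2. The replicate 1 peak of 128 bp lay wholly inside the replicate 2 peak of 192 bp. The fourth, chr1:187761023-187761181, was row 7 and row 26, with its nearest Six2 peak 189547 bp away. The fifth, chr4:136691825-136691992, was row 22 and row 13, with midpoints 1.5 bp apart. These sites differ in their surroundings. The one on chromosome 1 had 1 other β-catenin peak within 100 kb and no Six2 peak, while those on chromosomes 14 and 4 had several β-catenin peaks beside them.

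The other leading sites followed at lower rows. The site at chr12:15756793-15756933 was row 32 and row 5, and the one at chr3:23308509-23308654 was row 13 and row 28. The latter was the most isolated of the first 10, with no other peak of any of the 4 lists within 100 kb and the nearest Six2 peak 273678 bp away. The site at chr16:31535402-31535574 was row 5 in replicate 1 but row 47 in replicate 2. Next came chr6:51124284-51124510 (rows 50 and 17) and chr5:99814180-99814337 (rows 52 and 27). Over these 10 sites the regions were 139 to 227 bp wide, and the midpoints of the libraries' peaks were 1.5 to 37.5 bp apart. With rows divided by list length the same 10 came first.

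The site on chromosome 6 was the only one of the first 10 that lay close to Six2. Peaks of both Six2 libraries ended 742 and 734 bp before it, at rows 296 and 680, and both β-catenin libraries had a second region on those Six2 peaks, 653 bp from the site. In all, 6 Six2 replicate 1 peaks and 2 Six2 replicate 2 peaks lay within 100 kb of it. Here β-catenin was called at adjoining sites with and without Six2.

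**Figure D1:**
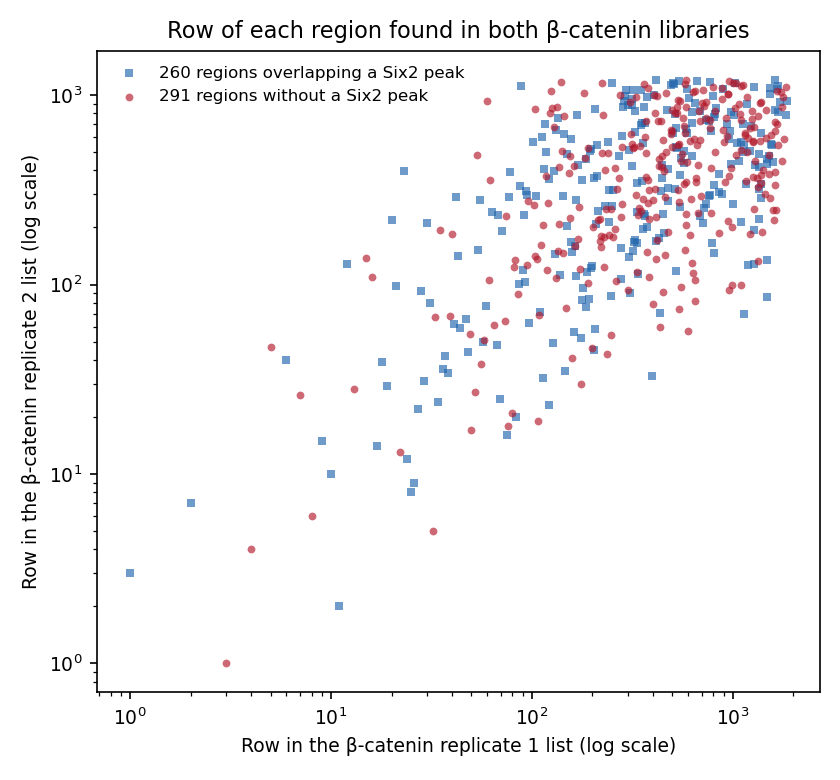
Row of each region in the β-catenin replicate 1 list (horizontal) and replicate 2 list (vertical), on log scales, for the 291 regions without a Six2 peak (circles) and the 260 with one (squares). Both kinds run from the first rows to the last. Those without Six2 start at rows 3 and 1, and those with it at rows 1 and 2.

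The 291 sites ran through the whole of both lists. In replicate 1 their rows had a median of 455 (quartiles 200 and 904.5, range 3 to 1847), and in replicate 2 a median of 383 (quartiles 180 and 695, range 1 to 1200). Rows of the same site in the lists went together, with Spearman's rho of 0.47 and Pearson's r of 0.36 over 291 regions, and 0.56 and 0.42 over the 260 regions with Six2. These values describe regions of 2 libraries, which are not replicates. Of the 291, 68 were in the first 20% of both lists and 4 in the last 20% of both. The same counts were not made for regions with Six2, so they do not set these sites apart.

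Regions with Six2 stood somewhat earlier. Their median row was 324.5 in replicate 1 and 328 in replicate 2, so that the sites without Six2 came 130.5 and 55 rows later. The 95% binomial intervals of the medians in replicate 1 were 401 to 536 without Six2 and 278 to 372 with it. In replicate 2 they were 334 to 451 and 286 to 406. They cover counting error over the regions of 1 library, not spread between libraries. The gap was not tested across libraries, and its direction in replicate 2 depends on Six2 replicate 1. Without that library the regions lacking Six2 came 62.5 rows later in replicate 1 and 61 rows earlier in replicate 2 (medians 345 and 406). The shorter Six2 list and the longer one therefore give opposite orders in β-catenin replicate 2.

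Among the first 100 rows, sites of both β-catenin libraries without Six2 made up 33 peaks in replicate 1 (23.9 to 43.1%) and 39 in replicate 2 (29.4 to 49.3%). Sites of both libraries with Six2 made up 53 and 51, and the remaining 14 and 10 peaks were seen in 1 library. In the first 100 rows of both lists at once there were 20 sites without Six2 and 32 with it. Over 5 equal parts of the list, the share of peaks at sites without Six2 fell from 32.6% to 22.7%, 9.09%, 8.27% and 5.33% in replicate 1, and from 41.9% to 27.7%, 21.6%, 16.9% and 12.4% in replicate 2. Peaks found again in the other library became fewer down both lists, and this is part of how the sites were chosen. Within the peaks found again, those without Six2 were 45.4% of the first of these parts and 64.4% of the second in replicate 1, then 52.3 to 58.8%. In replicate 2 they were 49.8%, 51.9%, 55.3%, 59.4% and 53.6%, a rise at each step until a fall in the last part.

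**Figure D2:**
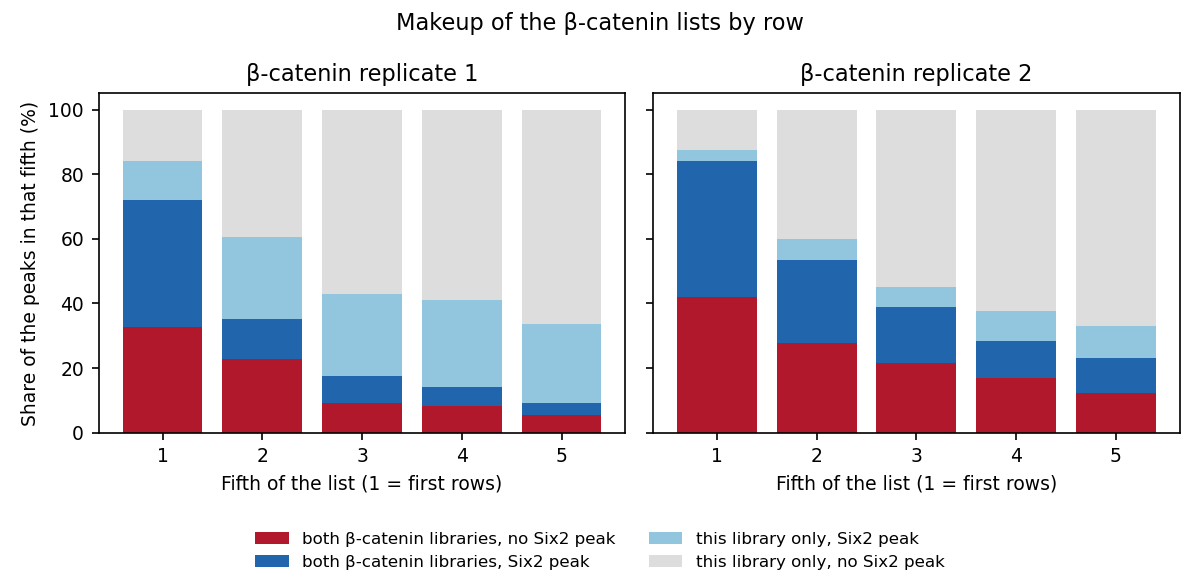
Share of the peaks (%) in each of 5 equal parts of the β-catenin replicate 1 list (left) and replicate 2 list (right) that lay at sites of both β-catenin libraries without or with a Six2 peak, or were seen in that library only. Sites of both libraries without Six2 fall from 32.6% to 5.33% and from 41.9% to 12.4% between the first and last part.

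Because the rule asks that the libraries' peaks overlap, their midpoints could not lie far apart, and the distance between them is given only as a description. The midpoints of their peaks were a median of 28.5 bp apart (95% interval 24 to 31.5 bp), with 208 of the 291 (71.5%, 65.9 to 76.6%) within 50 bp and 26 (8.93%) over 100 bp apart. Regions with Six2 had a median of 31.75 bp (26 to 38 bp). Peaks at sites without Six2 were a median of 131 bp wide in replicate 1 and 147 bp in replicate 2, and 141.5 and 151 bp at regions with Six2. The merged regions had medians of 182 bp (172 to 192) and 194.5 bp (187 to 208). A wider region meets a Six2 peak more easily, so width is not independent of the rule.

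A few of the 291 sites were broad. The libraries differed most at chr17:28238116-28239192, where a replicate 2 peak of 1077 bp (row 412) covered a replicate 1 peak of 165 bp (row 258). At chr5:132077862-132078488 both peaks were broad, 627 and 538 bp, at rows 931 and 611. In all, 6 of the 291 regions (2.06%, 0.760 to 4.43%) were over 500 bp, against 13 of the 260 with Six2 (5.0%, 2.69 to 8.40%). One site held 2 replicate 1 peaks, and none held 2 of replicate 2.

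Most sites without Six2 had a Six2 peak in the same stretch of chromosome. The nearest one lay a median of 58332 bp away (95% interval 45771 to 75294 bp, quartiles 18630 and 155571 bp). Of the 291, 190 (65.3%, 59.5 to 70.8%) had a Six2 peak within 100 kb, 48 (16.49%, 12.4 to 21.3%) within 10 kb and 11 within 1 kb. The same share within 100 kb was lower for β-catenin regions without Six2 that were seen in 1 library, at 55% of 746 in replicate 1 (51.3 to 58.6%, chromosome 2 block left out, 47.4% with it) and 54.9% of 572 in replicate 2 (50.7 to 59.0%). Their medians were 85670 bp (74032 to 96018 bp) and 86223 bp (75639 to 97147 bp). Within 10 kb the shares were closer, at 16.9% and 11.4%. Within 1 kb the 291 sites had the lowest share, 3.78% (1.90 to 6.66%), against 5.09% (3.63 to 6.92%, block left out) and 4.55% (2.99 to 6.59%). Against regions of replicate 1 only, the sites thus had the higher share within 100 kb but not within 10 kb or 1 kb. Against those of replicate 2 only, they had it within 100 kb and 10 kb but not within 1 kb. These differences were not tested, since regions of a library are not replicates.

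The nearest Six2 peak was mostly one of the longer list. It belonged to Six2 replicate 1 for 222 sites and to replicate 2 for 69. The Six2 lists hold 5645 and 1622 peaks, much the same proportion, so this split does not set the sites apart. Against Six2 replicate 2 alone the median distance of the 291 sites was 245651 bp, and 87 of them (29.9%, 24.7 to 35.5%) had such a peak within 100 kb. For regions seen in 1 β-catenin library, these shares were 24.7% (21.6 to 27.9%, block left out) and 20.6% (17.4 to 24.2%). The intervals cover counting error over regions, which are not replicates, and these shares were not tested against each other.

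**Figure D3:**
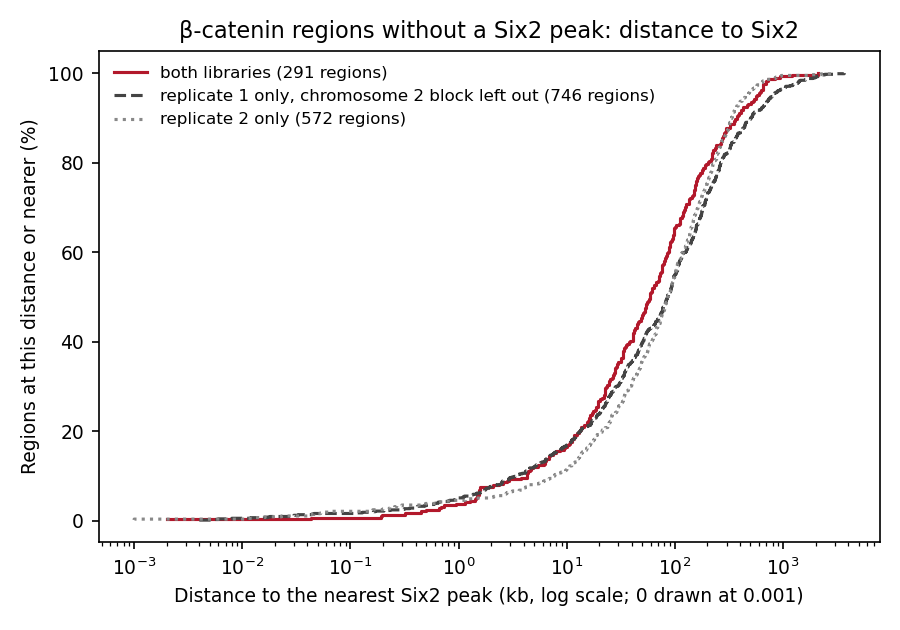
Cumulative share (%) of β-catenin regions without a Six2 peak by distance to the nearest Six2 peak (kb, log scale), for the 291 regions of both libraries (solid), 746 of replicate 1 only (dashed) and 572 of replicate 2 only (dotted). At 100 kb the solid line is at 65.3% and the others at 55% and 54.9%.

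Standing early in the β-catenin lists did not go with distance to Six2. With the sites split by mean row into 3 equal parts, the first had a median distance of 69132 bp (38194 to 87422), the second 53606 bp (41016 to 81134) and the last 59426 bp (33174 to 88057). Across the 291 sites, Spearman's rho between mean row and this distance was 0.011 and Pearson's r 0.0047. The midpoint distance between libraries had medians of 23, 29 and 31.5 bp in these parts, with a rho of 0.11.

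The sites just inside the rule nearly touched a Six2 peak. At chr9:15474772-15474913 (rows 252 and 178) a Six2 replicate 1 peak of row 4513 lay 2 bp away, and at chr16:56396799-56396967 (row 119 in both lists) one of row 2460 lay 43 bp away. The next were chr2:158512702-158512941 (rows 1333 and 773, 191 bp), chr10:87329913-87330200 (rows 60 and 935, 195 bp) and chr9:40512497-40512694 (rows 103 and 842, 316 bp), each against Six2 replicate 1. No site had a Six2 replicate 2 peak within 500 bp (0 of 291, exact upper bound 1.26%). Just outside the rule, chr13:69568739-69568814 (rows 300 and 886) shared 2 bp with a Six2 replicate 1 peak of row 3190, and chr13:90800620-90800846 (rows 777 and 648) shared 7 bp with a Six2 replicate 2 peak of row 26. The border is therefore a matter of a few bases for some sites, but 285 of the 291 had no Six2 peak within 500 bp.

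At the other end, 2 sites lay over 1 Mb from any Six2 peak. They were chr17:40944185-40944415 (rows 430 and 461), at 2101743 bp, and chr16:26901682-26901937 (rows 498 and 647), at 1220884 bp. Both were named after their values were seen. In all, 77 of the 291 sites had no other peak of any of the 4 lists within 100 kb. The same count was not made for other β-catenin regions, so it does not set these sites apart.

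Several sites without Six2 stood in groups. The gap from a site to the next on its chromosome had a median of 3876577 bp. Over gaps of at most 100 kb, 16 groups holding 35 sites were joined, and 8 pairs over at most 10 kb. Such groups were not counted for other β-catenin regions, so grouping is not shown to be particular to these sites. Counting all peaks from 1 to 100 kb away, 115 of the 291 sites (39.5%, 33.9 to 45.4%) had another peak of β-catenin replicate 1 and 84 (28.9%, 23.7 to 34.4%) one of replicate 2. For regions with Six2 the shares were 44.6% (38.5 to 50.9%) and 31.5% (25.9 to 37.6%). Six2 replicate 1 peaks in this span were present at 61.5% of the sites without Six2 (55.7 to 67.1%) and 62.3% of regions with it (56.1 to 68.2%). At Six2 replicate 2 the shares were 29.9% (24.7 to 35.5%) and 36.9% (31.0 to 43.1%). These shares were not tested against each other, since regions are not replicates.

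The group with most sites was on chromosome 14, where 4 lay between 22642018 and 22810726. From left to right their rows in replicates 1 and 2 were 94 and 126, 792 and 1101, 1762 and 451, and 8 and 6. The last 2 are 3381 bp apart, and single-library β-catenin peaks stood beside them, a replicate 2 peak of row 906 between them and a replicate 1 peak of row 1791 beyond. Between the first and second site, at 22711080 to 22711527, both β-catenin libraries had a region at later rows (799 and 985) that did carry Six2, at rows 4307 and 1581. The leading β-catenin site of this stretch was thus without Six2, and the only Six2 peaks were late in both Six2 lists.

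The next group showed the reverse order. On chromosome 4, 3 sites without Six2 lay between 136684167 and 136768925, at rows 526 and 862, 22 and 13, and 897 and 652. The rightmost stood 4264 bp before the region at 136773190 to 136773332, row 1 of β-catenin replicate 1 and row 3 of replicate 2, on which Six2 peaks of rows 192 and 259 lay. Here the first site of the stretch was shared with Six2 and those without Six2 lay to 1 side of it, the one at rows 22 and 13 being 81197 bp away.

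**Figure D4:**
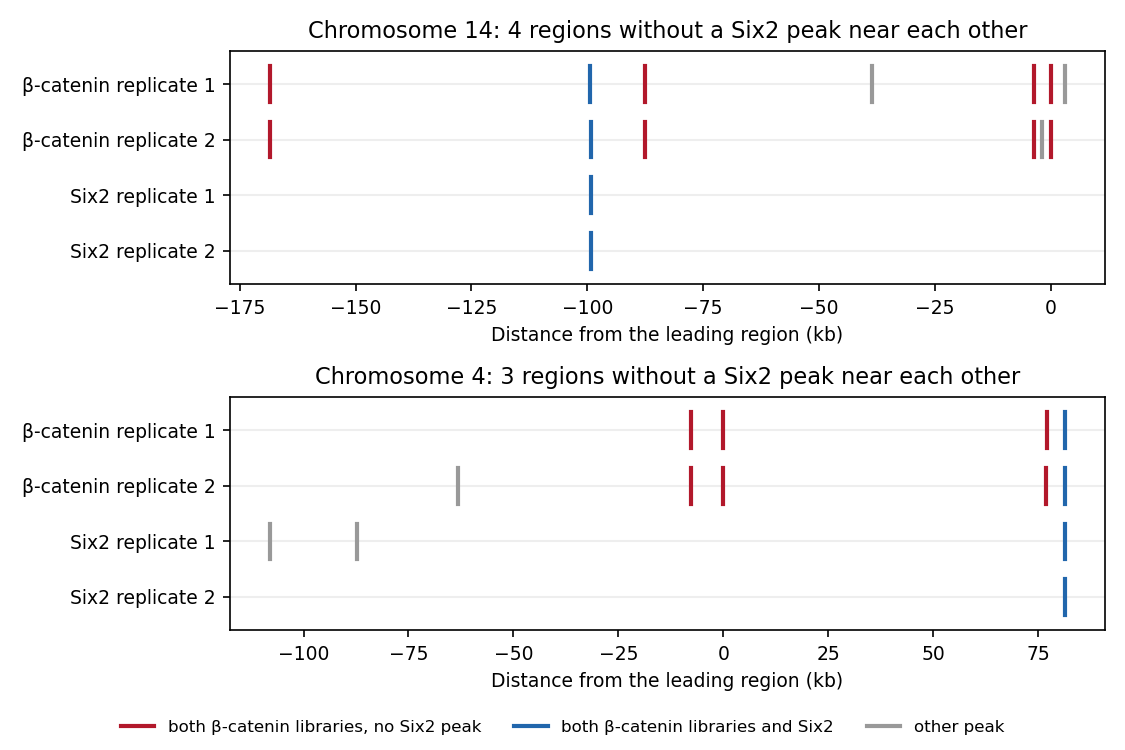
Peaks of the 4 libraries (one line each, a tick per peak) around the groups on chromosome 14 (top, 4 sites) and chromosome 4 (bottom, 3 sites), by distance (kb) from the leading site without Six2. Red ticks are β-catenin sites of both libraries without Six2, blue ticks belong to regions with Six2, and grey ticks are other peaks.

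The remaining 14 groups were pairs. The next by row after the chromosome 11 pair above were at chr5:48725412-48732591, where the best rows were 58 and 51 and 1 Six2 peak lay within 100 kb, and at chr7:103673967-103679746, with best rows of 73 and 64. A pair at chr2:73115485-73204636 (best rows 81 and 100) had no Six2 peak of either library within 100 kb of the pair. Pairs at chr6:101342734-101361346 and chr7:144877042-144943353 had none either.

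The sites were spread over all 20 chromosomes with peaks. Chromosome 2 held 24, chromosome 4 held 23 and chromosome 5 held 22, and chromosome X held 1, at chr X, 139228727 to 139228892 (rows 995 and 200), the only region of both libraries there. As a share of the regions of both β-catenin libraries, sites without Six2 ranged over the autosomes from 28% on chromosome 10 (7 of 25, 12.1 to 49.4%) to 72.7% on chromosome 16 (16 of 22, 49.8 to 89.3%). For 19 of the 20 chromosomes the interval held the pooled share of 52.8%. Chromosome 10 was the exception, and no test was made over these chromosomes. With 20 intervals looked at, 1 that misses the pooled share does not set a chromosome apart.

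**Figure D5:**
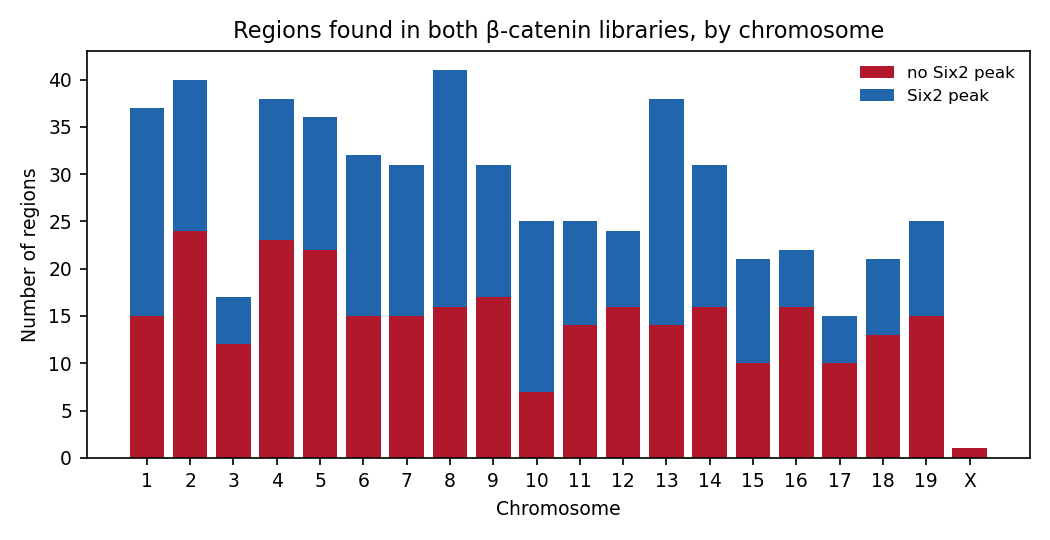
Number of regions of both β-catenin libraries on each chromosome, without (red) and with (blue) a Six2 peak. Sites without Six2 number from 1 on chromosome X to 24 on chromosome 2. Of the 20 intervals of the share, 1 (chromosome 10, 28%) lay below the pooled 52.8%, and no test was made.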

How the data were processed

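The deposited files are peak lists of mm9 start and end coordinates, a unit other than counts or a score (3 columns, no header), 1 list per library. Per the submitters' processing notes, CASAVA version 1.6 was used. Caller and threshold of the peaks: not given in the sources used here. The labels name a total DNA input control for each β-catenin and Six2 library. Whether the peaks were called against it is not given. The 6 input and mock samples were not analysed here. Intervals were read as BED, positions are printed 1-based, and distances count the bases between regions. Merging, distances, exact (Clopper-Pearson) intervals and binomial intervals of medians were computed with Python 3.11.15, pandas 2.3.3 and scipy 1.17.1. Intervals cover counting error only. Replicates are numbered in accession order, which pairs no β-catenin library with a Six2 library. The merging and distances were tested on 20 simulated lists with planted sites. Described in full are the 10 sites of lowest mean row and the 5 nearest to a Six2 peak. Others named were chosen after their values were seen. The sites and comparisons were chosen with earlier results of these data known. With 2 libraries per antibody, no test across libraries was made. The planned motif counts and gene lists were not run, since the reference tables are of GRCm38.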

Additional observations from a re-analysis of the deposited data

How the results depend on the processing

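The 291 sites (52.8% of 551 regions) became 285 and 243 when no Six2 peak was allowed within 500 bp or 10 kb, and 290 without chromosome X. With a reciprocal overlap of 50% there were 211 of 318 regions (66.4%). That overlap was also asked of Six2, so regions with a shorter Six2 overlap counted as without Six2. Of the 291 sites, 175 met it between their β-catenin peaks. The first 50% of each list, Six2 lists included, gave 202 of 320 (63.1%). These can include regions whose Six2 peak was in the part left out. Leaving out 1 library gave 301 to 1187 sites, distances to Six2 with medians of 64453 to 241352.5 bp, and median rows later than at regions with Six2 by 62.5 to 233 in β-catenin replicate 1 and from -61 to 228 in replicate 2. The median distance was 42289 bp with reciprocal overlap, 81134 bp with none within 10 kb and 142829.5 bp with the first 50% of each list. Cutting Six2 replicate 1 to the length of replicate 2, added after seeing the data, gave 371 sites, a median distance of 166644 bp, and row differences of 64 in replicate 1 and -24.5 in replicate 2. Fewer Six2 peaks lengthen distances by construction; the cause of the reversed row difference was not tested. Of the 10 leading sites, 10 were kept with reciprocal overlap, with none within 500 bp and with rows divided by list length, and 9 with none within 10 kb, which lost the one on chromosome 6; the other alternatives could not remove any of them by construction. Alternatives for motifs and gene assignment were not run. No paired analysis of β-catenin and Six2 libraries was possible, because the labels carry no replicate numbers and no result comes from a test. Without read counts, depth could not be weighed.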
